A study of Homo sapiens with 15 samples.

Results

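The 10 genes described here, TP63, SFN, DSG3, DSC3, A2ML1, IVL, SPRR1A, SPRR1B, SPRR3 and CRCT1, are genes of squamous epithelium and of cornification. They were read in 15 cell line-derived xenograft (CDX) tumors as 10 of the 58735 genes of the deposited count table, and all 10 were among the 21019 genes with enough counts to be tested. The list had been drawn up with their levels in these same tumors in view, so their differences between models are given as a description, without a test. The tumors came from 3 human cholangiocarcinoma (CCA, bile duct cancer) cell lines, with 5 tumors each of the intrahepatic line HuCC-A1, the intrahepatic line HuCC-T1 and the extrahepatic line EGI-1. All hosts were NRG mice (non-obese diabetic, Rag1-/- IL2Rgc-/-), which lack lymphocytes, and the study's methods give them as 8 weeks old and of both sexes. All 15 tumors are vehicle controls. The mice were given PBS into the peritoneum once a week, for 6 weeks in the HuCC-A1 model and for 4 weeks in the EGI-1 model, with no duration stated for HuCC-T1. Each model is 1 cell line, so the spread between tumors is that of 1 line in several mice, and line, anatomical origin and treatment duration cannot be told apart.

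Squamous epithelium, as in skin, mouth and esophagus, renews itself from a basal layer and hardens toward its surface, whereas bile ducts are lined by a single layer of simple epithelium. TP63 encodes p63, the transcription factor that maintains basal cells of stratified epithelia. Desmosomal cadherins such as desmoglein 3 and desmocollin 3 hold neighboring cells together, and in the upper layers transglutaminases cross-link involucrin and the small proline-rich (SPRR) proteins into the cornified envelope beneath the cell membrane. CCA with squamous differentiation is known to pathologists as adenosquamous carcinoma.

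Promoters are shown because 5 of the 10 genes match the same short pattern ahead of their start sites, while their levels differed between the models in different orders. The sequences are from RefSeq (GRCh38.p14). They were taken for the 9 genes that matched its promoter table, and the table's windows run from 250 bases before to 50 bases after a start site. The AP-1 family of transcription factors recognizes the core TGAGTCA or TGACTCA. The looser letters TGANTCA, with any base in the middle, were read on both strands, where the motif is its own reverse complement. They were found in 5 of these 9 genes, against 7.72% of all 34943 promoters in the table. The 250 bases before the start site of those 5 genes, all on the plus strand, are printed 5′ to 3′ with the matches in capitals.
IVL, chr1:152908296-152908545: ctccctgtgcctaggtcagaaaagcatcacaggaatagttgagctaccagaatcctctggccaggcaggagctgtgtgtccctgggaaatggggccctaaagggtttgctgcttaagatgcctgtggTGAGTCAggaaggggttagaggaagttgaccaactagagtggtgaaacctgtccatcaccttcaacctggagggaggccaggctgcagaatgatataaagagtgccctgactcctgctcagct
SPRR1A, chr1:152983831-152984080: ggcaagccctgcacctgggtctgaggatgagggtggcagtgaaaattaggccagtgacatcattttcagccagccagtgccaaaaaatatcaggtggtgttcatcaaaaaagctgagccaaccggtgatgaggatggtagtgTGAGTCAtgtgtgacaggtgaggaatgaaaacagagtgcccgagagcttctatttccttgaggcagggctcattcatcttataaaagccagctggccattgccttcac
SPRR3, chr1:153001499-153001748: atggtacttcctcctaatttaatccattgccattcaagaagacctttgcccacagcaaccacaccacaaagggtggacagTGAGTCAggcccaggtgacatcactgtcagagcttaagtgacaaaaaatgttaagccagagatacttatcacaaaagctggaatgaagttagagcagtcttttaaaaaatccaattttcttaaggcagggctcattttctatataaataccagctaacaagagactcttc
SPRR1B, chr1:153030953-153031202: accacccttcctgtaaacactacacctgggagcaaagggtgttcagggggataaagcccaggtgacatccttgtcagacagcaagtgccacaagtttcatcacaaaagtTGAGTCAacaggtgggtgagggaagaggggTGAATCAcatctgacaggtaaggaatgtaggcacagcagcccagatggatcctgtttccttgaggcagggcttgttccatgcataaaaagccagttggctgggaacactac
SFN, chr1:26862899-26863148: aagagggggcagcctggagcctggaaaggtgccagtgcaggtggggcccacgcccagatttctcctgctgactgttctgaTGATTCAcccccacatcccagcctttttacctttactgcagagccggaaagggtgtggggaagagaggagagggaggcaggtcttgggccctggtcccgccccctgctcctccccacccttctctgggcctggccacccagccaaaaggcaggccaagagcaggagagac

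In these windows the match began 123 bases before the start site in IVL, 108 in SPRR1A, 170 in SPRR3, and 141 and 111 in SPRR1B. In SFN it began 170 bases before. The letters were TGAGTCA in IVL, SPRR1A, SPRR3 and the match of SPRR1B farther from the start, TGAATCA in its nearer match and TGATTCA in SFN. TGAATCA and TGATTCA are outside the AP-1 core, so SFN matched the looser letters only. The shares of other genes and of all promoters count the looser letters too. A2ML1, DSC3, DSG3 and TP63 had no match in their windows. The TP63 window (chr3:189631139-189631438) lies at the 5′ end of the gene, so no start site farther inside TP63 was read. The letters were also in 12 of the 37 matched genes (32.4%) among the other genes of the epidermal differentiation complex, the cluster on chromosome 1 that holds IVL, the SPRR genes and CRCT1. They were in 24 of 82 matched genes (29.3%) among 121 other genes of squamous epithelium, some of which also belong to the complex. The letters TATAAA, the core of a TATA box, were in 5 of the 9 genes, against 11.6% of all promoters. In IVL, SPRR1A, SPRR3 and A2ML1 they began 29 to 31 bases before the start, and in TP63 the match lay after the start on the other strand. Matches are given as letters only, and no binding was measured.

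Total counts per tumor ranged from 20001412 to 33585265 in HuCC-A1, from 26163778 to 33984103 in HuCC-T1 and from 34239460 to 44067878 in EGI-1. Levels are CPM, counts scaled to a common library total by way of TMM, a factor that evens out differences in RNA composition. The biliary label was checked with 11 markers of bile duct and simple epithelium, whose summed level was 5618 to 7735 CPM in HuCC-A1 tumors, 6862 to 18359 CPM in HuCC-T1 tumors and 15072 to 26241 CPM in EGI-1 tumors. KRT19, a keratin of bile ducts, was the highest of them, with 2830 ± 207 CPM in HuCC-A1, 4870 ± 2334 CPM in HuCC-T1 and 8951 ± 2092 CPM in EGI-1 tumors (SD, n = 5 each). SPP1, which encodes osteopontin, was the lowest, at 1.28 CPM or less in every tumor, and none of the 11 was at 0 in all tumors. Markers of host cell types were low beside these. Reads were aligned to the human genome and the removal of mouse reads is not given, so host content cannot be read from marker levels. The summed level of 8 fibroblast markers was 424 to 949 CPM in HuCC-A1, 99.9 to 517 CPM in HuCC-T1 and 74.5 to 127 CPM in EGI-1 tumors. In HuCC-A1 nearly all of it was COL3A1 (398 to 927 CPM, against 4.64 to 13.7 CPM in HuCC-T1 and 2.01 to 22.3 CPM in EGI-1). COL1A1, in contrast, had 10.7 to 23.2 CPM in HuCC-A1, 85.0 to 484 CPM in HuCC-T1 and 68.4 to 113 CPM in EGI-1 tumors. The 5 endothelial and 6 leukocyte markers summed to at most 31.2 and 54.8 CPM in any tumor, with no marker at 0 in all 15. In a bulk tumor, fewer cells of a type and less RNA per cell cannot be told apart.

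The 10 genes did not follow 1 common order over the models. The mean level was highest in HuCC-A1 for 6 genes (TP63, SFN, DSG3, DSC3, SPRR1A and CRCT1), in HuCC-T1 for A2ML1 alone and in EGI-1 for 3 genes (IVL, SPRR1B and SPRR3). HuCC-T1 tumors had the lowest mean for 5 genes, EGI-1 tumors for 4 and HuCC-A1 tumors for 1. All 5 HuCC-A1 tumors lay above all 5 EGI-1 tumors for TP63, DSG3 and CRCT1, and below them for IVL and SPRR1B. For comparison, 23% of all tested genes lay above without overlap in this comparison and 21.6% below, 44.6% in all. Against HuCC-T1, the HuCC-A1 tumors lay wholly above for TP63, DSG3, DSC3, IVL, CRCT1 and SFN and wholly below for no member, where 20% of all tested genes lay above and 18.8% below (38.8% in all). HuCC-T1 tumors lay wholly above EGI-1 tumors for TP63, DSG3 and A2ML1, and wholly below for IVL, SPRR3 and DSC3, beside 18.9% and 18.8% of all tested genes (37.7% in all). Since the genes were chosen on these levels, nothing is read from these counts.

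**Figure D1:**
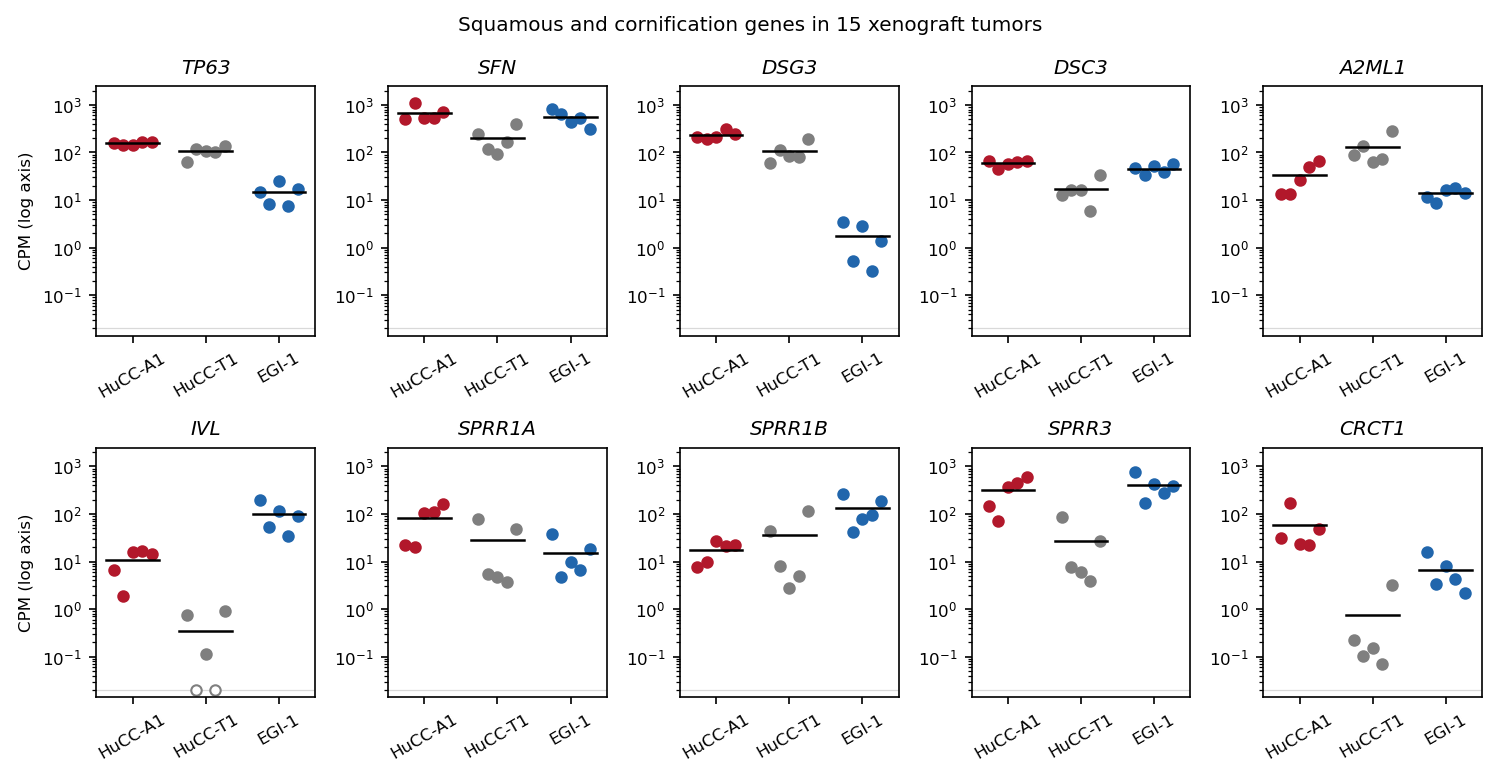
CPM of the 10 genes on a log axis in each of the 15 tumors, with 5 tumors per model and a black line at the mean; an open circle on the grey line marks a count of 0. TP63 and DSG3 are highest in HuCC-A1 and lowest in EGI-1, IVL is highest in EGI-1 and lowest in HuCC-T1, and A2ML1 is highest in HuCC-T1.

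TP63 (ENSG00000073282), the basal regulator, separated the 3 models without overlap. It had 158, 142, 141, 166 and 170 CPM across the 5 HuCC-A1 tumors, 64.5, 120, 108, 102 and 137 CPM across the HuCC-T1 tumors, and 14.5, 8.41, 25.2, 7.66 and 17.5 CPM across the EGI-1 tumors. The highest EGI-1 tumor was thus below the lowest HuCC-T1 tumor. The means were 155 ± 13.5, 106 ± 27.0 and 14.6 ± 7.18 CPM (SD, n = 5 each) in the order HuCC-A1, HuCC-T1 and EGI-1, and the log2 ratio of means was 3.41 for HuCC-A1 over EGI-1, 0.55 for HuCC-A1 over HuCC-T1 and 2.86 for HuCC-T1 over EGI-1. The counts cover the whole gene (chromosome 3, 189631416 to 189897279 on the plus strand), so the long and the truncated p63 isoforms, which start at different promoters, are not told apart.

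The desmosomal cadherins DSG3 and DSC3, which lie in 1 cadherin cluster on chromosome 18, differed from each other in their pattern. DSG3 (ENSG00000134757, 31447795 to 31478702 on the plus strand), desmoglein 3 of the lower layers of stratified epithelium and the target of antibodies in pemphigus vulgaris, had 213, 194, 214, 311 and 240 CPM across HuCC-A1 tumors, 58.7, 114, 86.0, 81.0 and 190 CPM across HuCC-T1 tumors, and 3.54, 0.514, 2.86, 0.320 and 1.41 CPM across EGI-1 tumors. All 3 models were separate, and the mean in HuCC-A1 was 136-fold that in EGI-1 (log2 ratio 7.08). DSC3 (ENSG00000134762, 30990008 to 31042815 on the minus strand), desmocollin 3, is its partner in the same junctions. It had 65.0, 44.4, 57.3, 64.4 and 65.5 CPM across HuCC-A1 tumors, 13.0, 16.3, 16.2, 5.93 and 33.5 CPM across HuCC-T1 tumors, and 47.6, 33.7, 51.1, 38.0 and 57.1 CPM across EGI-1 tumors. HuCC-A1 and EGI-1 tumors overlapped for DSC3, while HuCC-T1 tumors lay below both. Within a tumor the ratio of DSG3 to DSC3 counts was 3.28 to 4.83 in HuCC-A1, 4.52 to 13.7 in HuCC-T1 and 0.00842 to 0.0743 in EGI-1. EGI-1 tumors therefore held DSC3 RNA at 33.7 CPM or more with DSG3 at 3.54 CPM or less.

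SFN (ENSG00000175793, chromosome 1, 26863138 to 26864457) encodes 14-3-3 sigma, the stratified-epithelial member of the 14-3-3 adaptor family and a target of p53. It had the highest level of the 10 genes in every model, at 507, 1087, 528, 524 and 700 CPM across HuCC-A1 tumors, 241, 116, 93.8, 168 and 398 CPM across HuCC-T1 tumors, and 822, 649, 446, 525 and 310 CPM across EGI-1 tumors. HuCC-A1 lay wholly above HuCC-T1, and EGI-1 overlapped both. SFN made up 40.6% of the summed mean CPM of the 10 genes in HuCC-A1, 31.1% in HuCC-T1 and 42.8% in EGI-1. Per kilobase of annotated exon it was also first in each model, at 507, 154 and 417 CPM per kb. Among the other 6 genes of the 14-3-3 family, which are expressed in most tissues, YWHAG was higher in the HuCC-A1 than the EGI-1 tumors (log2 fold change 1.36 with a standard error of 0.161, edgeR adjusted p = 1.74e-06), 4 of the 6 were lower and 1 was not called. YWHAZ, the most abundant of them, had 767 ± 104 CPM in HuCC-A1, 1350.3 ± 104 CPM in HuCC-T1 and 1349.9 ± 143 CPM in EGI-1 tumors.

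A2ML1 (ENSG00000166535, chromosome 12, 8822472 to 8887001), a broad protease inhibitor of the granular layer, was the gene with its highest mean in HuCC-T1. It had 13.5, 13.3, 25.8, 50.1 and 65.4 CPM across HuCC-A1 tumors, 88.7, 140, 63.1, 73.5 and 288 CPM across HuCC-T1 tumors, and 11.8, 8.59, 16.4, 18.0 and 13.8 CPM across EGI-1 tumors. HuCC-T1 was separate from EGI-1 but touched HuCC-A1, where the highest tumor (65.4 CPM) passed the lowest HuCC-T1 tumor (63.1 CPM). The log2 ratio of means was 1.29 for HuCC-A1 over EGI-1, -1.96 for HuCC-A1 over HuCC-T1 and 3.25 for HuCC-T1 over EGI-1.

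IVL (ENSG00000163207), which encodes involucrin, an early scaffold protein of the cornified envelope, had the widest range of model means. It had 6.59, 1.85, 15.6, 16.5 and 14.3 CPM across HuCC-A1 tumors, 0.735, 0, 0.112, 0 and 0.903 CPM across HuCC-T1 tumors, and 198, 53.2, 115, 35.0 and 92.5 CPM across EGI-1 tumors. No model overlapped another, with EGI-1 highest and HuCC-T1 lowest, the reverse of the order of TP63 for HuCC-A1 and EGI-1. The HuCC-T1 mean of 0.350 ± 0.435 CPM rested on 55 counts in 5 libraries, and the EGI-1 mean of 98.8 ± 63.9 CPM was 282-fold higher than it. The log2 ratio of HuCC-T1 over EGI-1 means was -8.14, and it was -8.87 without HuCC-T1 replicate 5.

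The 3 SPRR genes, whose proteins are cross-linked into the envelope, lie side by side in the epidermal differentiation complex, yet each had its own order of models. SPRR1A (ENSG00000169474), SPRR3 (ENSG00000163209) and SPRR1B (ENSG00000169469) start at bases 152985231, 153001747 and 153031202 of chromosome 1 in GENCODE release 29. SPRR1A had 22.5, 20.1, 105, 111 and 161 CPM across HuCC-A1 tumors, 77.7, 5.50, 4.68, 3.71 and 48.6 CPM across HuCC-T1 tumors, and 37.4, 4.69, 9.56, 6.58 and 18.0 CPM across EGI-1 tumors. Its mean was highest in HuCC-A1, but the tumors of all 3 models overlapped. SPRR1B had 7.72, 9.70, 27.6, 21.0 and 22.3 CPM across HuCC-A1 tumors, 44.9, 8.20, 2.77, 4.94 and 117 CPM across HuCC-T1 tumors, and 259, 42.4, 77.7, 95.9 and 184 CPM across EGI-1 tumors. Here EGI-1 lay wholly above HuCC-A1, whereas HuCC-T1 spread over both. SPRR3, a form typical of oral and esophageal lining, had 145, 70.3, 367, 438 and 610 CPM across HuCC-A1 tumors, 88.3, 7.64, 6.10, 3.92 and 27.2 CPM across HuCC-T1 tumors, and 765, 172, 431, 273 and 393 CPM across EGI-1 tumors. HuCC-T1 was below EGI-1 without overlap, and HuCC-A1 and EGI-1 covered much the same range (means 326 ± 220 and 407 ± 225 CPM, n = 5 each).

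SPRR1A and SPRR1B counts moved apart between models within the same tumor. The ratio of SPRR1A to SPRR1B counts was 2.07 to 7.20 in HuCC-A1 tumors, 0.417 to 1.73 in HuCC-T1 tumors and 0.0686 to 0.145 in EGI-1 tumors, with no overlap between the models. The ratio of SPRR3 to SPRR1B counts was 7.25 to 27.3, 0.233 to 2.20 and 2.13 to 5.56 in the same order. SPRR1A and SPRR1B are close copies, and 25 windows of 50 bases occur in transcripts of both SPRR1A and SPRR1B. These are 11.3% of the windows of SPRR1A and 4.38% of those of SPRR1B. A read lying wholly within a shared stretch could not be assigned to 1 of the genes, but whether there were such reads was not measured. GENCODE release 29 annotates SPRR1A by 270 exon bases in 1 block, against 620 bases for SPRR1B and 1441 for SPRR3. If that model was used for counting, reads from the rest of the SPRR1A transcript were not counted, and its level is then not comparable with that of other genes.

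CRCT1 (ENSG00000169509, chromosome 1, 152514502 to 152516010), which encodes a small cysteine-rich protein, was the most uneven within HuCC-A1 and within HuCC-T1. It had 31.6, 167, 23.6, 22.3 and 49.1 CPM across HuCC-A1 tumors, 0.224, 0.104, 0.150, 0.0706 and 3.15 CPM across HuCC-T1 tumors, and 15.7, 3.39, 8.04, 4.34 and 2.15 CPM across EGI-1 tumors. HuCC-A1 lay above both other models without overlap, and HuCC-T1 and EGI-1 overlapped only through HuCC-T1 replicate 5. The log2 ratio of HuCC-A1 over HuCC-T1 means was 6.31, and it was 8.72 without HuCC-T1 replicate 5 and 5.42 without HuCC-A1 replicate 2. The log2 ratio of HuCC-A1 over EGI-1 means was 3.13, and 2.23 without HuCC-A1 replicate 2.

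Within a model the genes varied unequally. The coefficient of variation over 5 tumors ran from 8.72% (TP63) to 105% (CRCT1) in HuCC-A1, from 25.4% (TP63) to 182% (CRCT1) in HuCC-T1 and from 21.0% (DSC3) to 87.8% (SPRR1A) in EGI-1, with medians of 53.6%, 95.5% and 60.0%. HuCC-T1 replicate 5 was the highest of its model for 8 of the 10 genes, and replicate 1 for SPRR1A and SPRR3. Of all 20858 genes compared, 23.4% were highest in HuCC-T1 replicate 5 and 27.0% in replicate 1. EGI-1 replicate 1 was the highest of its model for 7 genes (25.9% of all genes), and HuCC-A1 replicate 5 for 5 (19.5%). HuCC-A1 replicate 2, the smallest library, was the lowest of its model for 6 genes (24.9%) but the highest for CRCT1 and SFN.

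**Figure D2:**
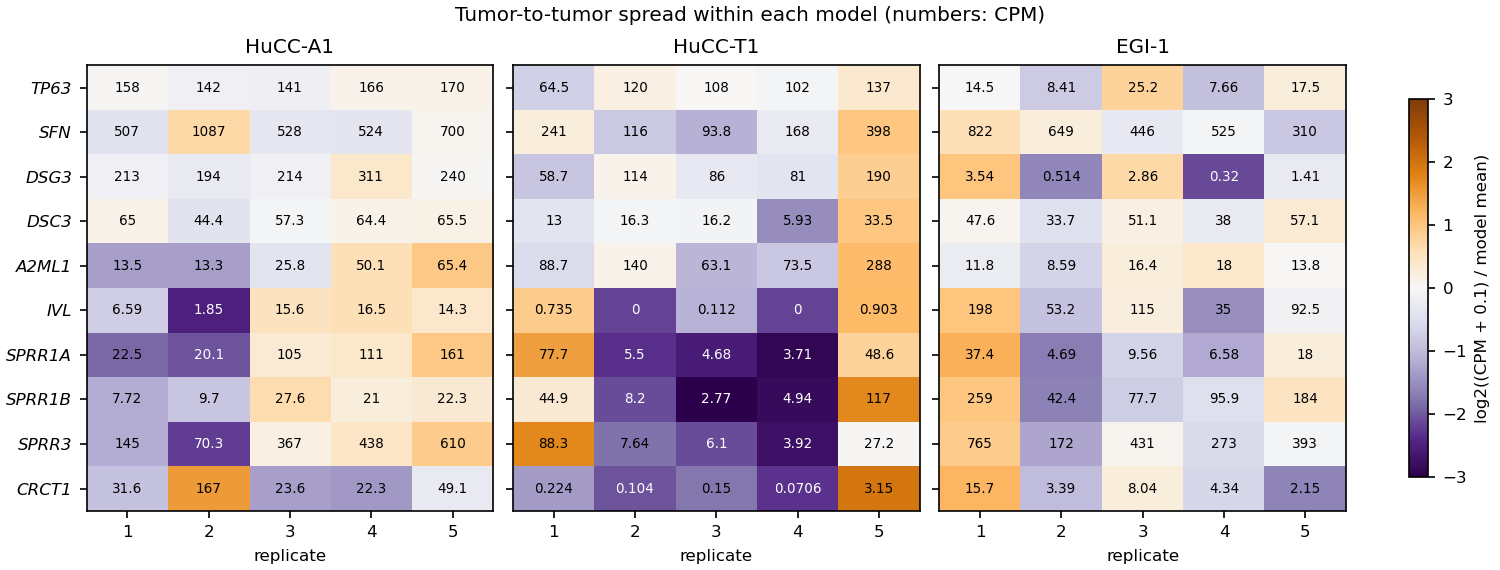
Each cell holds the CPM of 1 gene (rows) in 1 tumor (columns, replicates 1 to 5), and its color is log2 of CPM plus 0.1 over the mean of the model on the same scale. HuCC-T1 replicates 1 and 5 carry most of the SPRR signal of their model, and TP63 is the most even gene in HuCC-A1 and HuCC-T1.

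HuCC-T1 replicate 5 and EGI-1 replicate 1 also had the highest summed level of skin markers in their models. The summed level of 13 markers of skin keratinocytes was 1424 to 3245 CPM in HuCC-A1 (highest in replicate 5), 1322 to 7629 CPM in HuCC-T1 (highest in replicate 5) and 336 to 2095 CPM in EGI-1 (highest in replicate 1). In these tumors nearly all of it was KRT5 and KRT14, the basal keratin pair, with 5278 and 2252 CPM in HuCC-T1 replicate 5 and 1849 and 179 CPM in EGI-1 replicate 1. Of the 13 markers, 11 had a count in HuCC-T1, and 8 of these were highest in replicate 5 (KRT1, KRT2, KRT5, KRT14, KRT77, FLG, FLG2 and KRT71), while KRT10 and KRT25 were highest in replicate 1 and KRT79 in replicate 2. In HuCC-T1 replicate 5, KRT1 had 42.4 CPM, FLG, which encodes filaggrin of the granular layer, 13.1 CPM, KRT77 5.79 CPM and KRT71, a keratin of hair follicles, 1.18 CPM (38 counts). The markers with no count in HuCC-T1 were LOR, which encodes loricrin, and KRT27, another keratin of hair follicles. In EGI-1, 6 of 11 markers with a count were highest in replicate 1 (KRT1, KRT5, KRT10, KRT14, KRT25 and KRT79). KRT1 had 10 counts there against 11 in the larger library of replicate 5, and KRT25 had 4, as in replicate 2. Of all genes compared, 25.9% were highest in EGI-1 replicate 1 and 23.4% in HuCC-T1 replicate 5. No marker of the 13 was at 0 in all 15 tumors. The tumors grew in mice and the removal of mouse reads is not given in the sources used here, so the part of host skin in these levels was not tested. Without HuCC-T1 replicate 5, the log2 ratio of HuCC-A1 over HuCC-T1 means of SPRR1B was 0.20, against -1.01 with it. The log2 ratio of SPRR1A means of HuCC-T1 over EGI-1 was 0.88, and it was 0.06 without HuCC-T1 replicate 1 and 1.52 without EGI-1 replicate 1.

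The epidermal differentiation complex, from TCHHL1 to PGLYRP4 (chromosome 1, 152084144 to 153348840 in GRCh38), holds 47 protein-coding genes, of which CRCT1, IVL, SPRR1A, SPRR3 and SPRR1B are 5. Of the 42 others, 10 had no count in any tumor, 32 had a mean below 1 CPM in every model, and the highest model mean was 34.1 CPM, for CRNN in HuCC-A1, above IVL and SPRR1B in the same model. None of the 18 late cornified envelope (LCE) genes, which act in the outermost layers of skin, reached a mean of 1 CPM in any model. CRNN, which encodes cornulin of the esophageal lining, had 34.1 ± 25.3 CPM in HuCC-A1, 6.47 ± 11.9 CPM in HuCC-T1 and none in EGI-1 tumors, all 5 of which were at 0. It was higher in HuCC-A1 than in HuCC-T1 without HuCC-T1 replicate 1 (log2 fold change 4.74, edgeR adjusted p = 0.000904) and not with all tumors (2.39, adjusted p = 0.0817). Set against a floor of 3 counts per group, which covers counting error only, it was at least 2076-fold higher in the HuCC-A1 than the EGI-1 tumors (adjusted p = 0.000241 from edgeR). SPRR2A, a neighbor of SPRR1B, had 17.2 ± 11.4 CPM in HuCC-A1, 4.00 ± 7.74 CPM in HuCC-T1 and 13.7 ± 8.57 CPM in EGI-1 tumors and was called in no comparison, nor was SPRR2D. Both results turned on HuCC-T1 replicate 5. Without that tumor, SPRR2A was higher in HuCC-A1 than in HuCC-T1 (log2 fold change 4.94, adjusted p = 7.04e-05 from edgeR) and lower in HuCC-T1 than in EGI-1 tumors (-4.63, adjusted p = 0.000140). SPRR2D was higher (3.05, adjusted p = 0.00509) and lower (-4.86, adjusted p = 0.000202) in the same comparisons. SPRR2D was then also called lower in the HuCC-A1 than the EGI-1 tumors (-1.81, adjusted p = 0.0275 from edgeR). HuCC-T1 replicate 5 is in neither of these 2 models, and the log2 fold change hardly moved (-1.79 with all tumors). All tumors share 1 estimate of the spread in the fit. SPRR2E was higher in the HuCC-A1 than the EGI-1 tumors (log2 fold change 3.29, adjusted p = 0.0231 from edgeR), a call lost at adjusted p = 0.0540 without EGI-1 replicate 3 and 0.0520 without EGI-1 replicate 4. It was higher than in HuCC-T1 without HuCC-T1 replicate 5 (4.82, adjusted p = 0.000966), with an adjusted p = 0.124 in the fit of all tumors. RPTN, which encodes repetin, was called higher in the HuCC-A1 than the EGI-1 tumors too (log2 fold change 2.32, adjusted p = 0.0268), and leaving out any 1 of 5 tumors (replicates 3 and 4 of HuCC-A1 and 2, 3 and 4 of EGI-1) took the adjusted p to between 0.0531 and 0.0978. Against HuCC-T1 it was not called with all tumors and was higher without HuCC-T1 replicate 5 (2.49, adjusted p = 0.0112). Of the 10 complex genes tested beside the members, 6 were called higher and 0 lower in HuCC-A1 against EGI-1, 2 higher and 1 lower in HuCC-A1 against HuCC-T1, and 4 higher and 0 lower in HuCC-T1 against EGI-1. In these comparisons 60%, 30% and 40% were called, against 55.4%, 56.3% and 52.3% of all tested genes. CRNN, at 0 in EGI-1, passed the filter on low counts through the other models, so nothing is read from the direction of these calls.

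**Figure D3:**
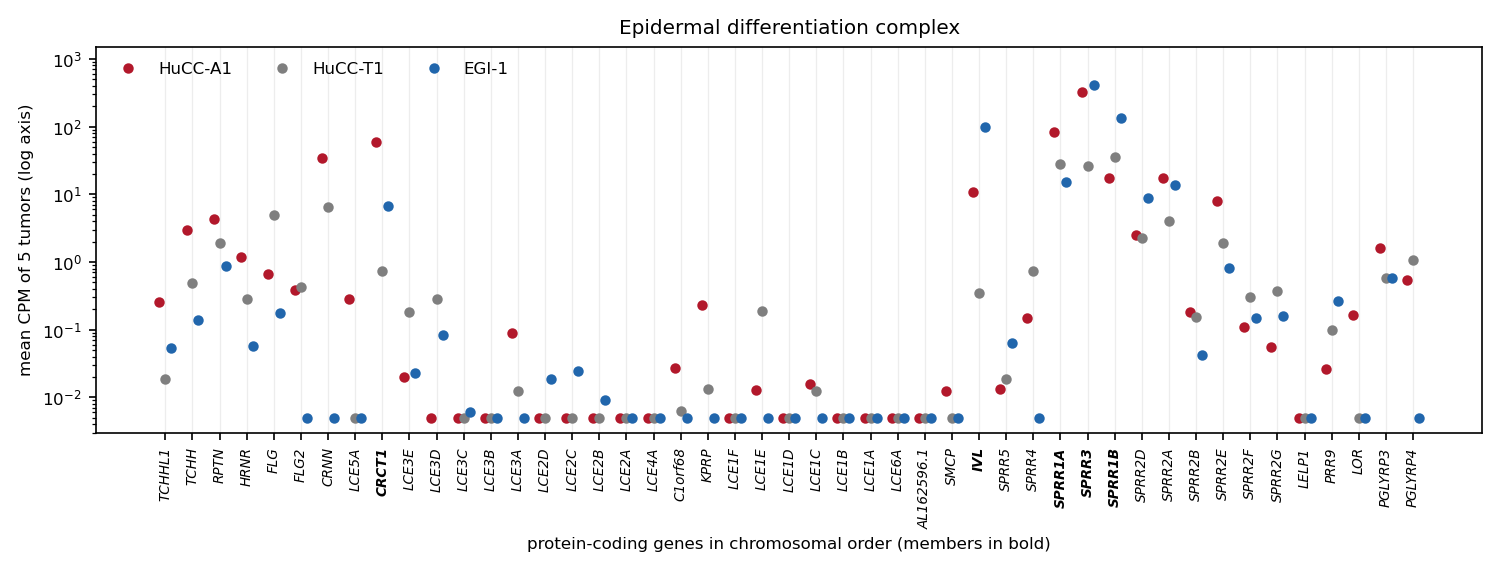
Mean CPM of 5 tumors per model (log axis, points at the bottom are 0) for the 47 protein-coding genes of the epidermal differentiation complex in chromosomal order, with the described genes in bold. Signal gathers at CRNN and CRCT1 and at IVL, SPRR1A, SPRR3, SPRR1B and the neighboring SPRR2 genes, and the LCE genes between them are at or near 0.

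To set the 10 genes in context, 121 further genes of squamous epithelium were read, of which 103 were tested. Some of them, such as CRNN, RPTN and the SPRR2 genes, also belong to the epidermal differentiation complex and are counted in both sets. In HuCC-A1 against EGI-1 tumors, 38 were higher and 38 lower, with 27 not past the threshold (73.8% called, against 55.4% of all 21019 tested genes). In HuCC-A1 against HuCC-T1, 41 were higher and 24 lower, with 38 not past it (63.1%, against 56.3%), and in HuCC-T1 against EGI-1, 27 were higher and 40 lower, with 36 not past it (65.0%, against 52.3%). The median log2 fold change of the 103 genes was 0.22, 0.58 and -0.18 in these comparisons, beside 0.06, 0.05 and 0.06 over all tested genes. Of all tested genes, 29.4% were called higher and 26% lower in HuCC-A1 against EGI-1, 29.1% and 27.2% in HuCC-A1 against HuCC-T1, and 27.3% and 25% in HuCC-T1 against EGI-1. As for the 10 genes, neither direction held throughout. Genes at 0 in EGI-1, such as CRNN and SOX2, passed the filter on low counts through the other models. The lists were also chosen with earlier results of these data known. Nothing is therefore read from the shares called or their direction, here or in the groups that follow.

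**Figure D4:**
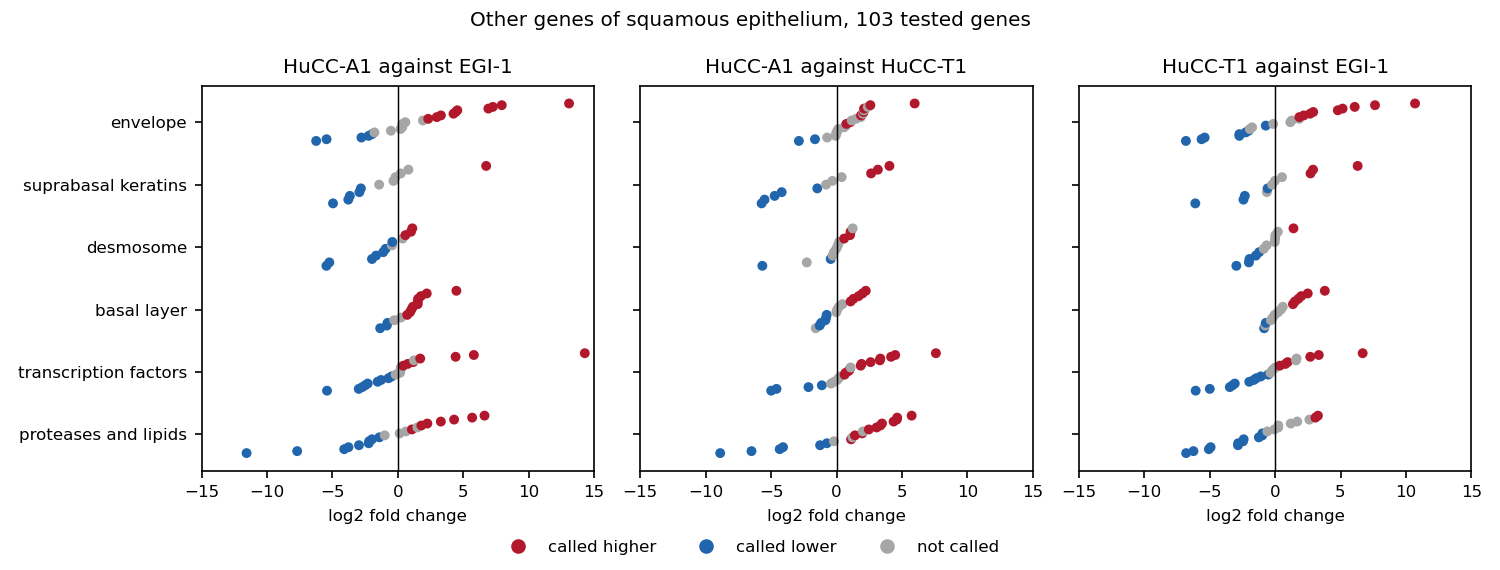
Fitted log2 fold change of 103 tested genes of squamous epithelium in 6 groups, in HuCC-A1 against EGI-1, HuCC-A1 against HuCC-T1 and HuCC-T1 against EGI-1; a point is a gene, red called higher, blue called lower and grey not called. Every group holds genes on both sides of 0 in each comparison, 38 called higher and 38 called lower in the left panel.

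Among genes of the cornified envelope beside the members, 10 of 23 tested were higher and 5 were lower in HuCC-A1 against EGI-1. PI3, which encodes elafin, a protease inhibitor cross-linked into the envelope, had 268 ± 113 CPM in HuCC-A1, 62.0 ± 74.8 CPM in HuCC-T1 and 1.73 ± 0.903 CPM in EGI-1 tumors. CSTA, cystatin A, had 101 ± 21.2, 27.6 ± 27.1 and 4.34 ± 4.16 CPM in the same order, the order of TP63 and DSG3. Without HuCC-T1 replicate 5 the HuCC-T1 mean was 32.6 CPM for PI3 and 16.6 CPM for CSTA, and the log2 fold changes of HuCC-A1 over HuCC-T1 were 3.02 (2.11 with it) and 2.59 (1.87 with it). Without EGI-1 replicate 1 the EGI-1 mean of CSTA was 2.56 CPM. TGM5, a transglutaminase, was highest in EGI-1, at 0.808 ± 0.344 CPM in HuCC-A1, 0.834 ± 0.486 CPM in HuCC-T1 and 35.4 ± 12.9 CPM in EGI-1 tumors (HuCC-A1 over EGI-1 log2 fold change -5.45, adjusted p = 1.61e-08 from edgeR). CALML5, a calmodulin-like protein of keratinocytes, was lower as well (-6.25, adjusted p = 3.02e-05). Between HuCC-A1 and HuCC-T1, 7 of the 23 were higher and 2 lower, and between HuCC-T1 and EGI-1 9 were higher and 8 lower.

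Of 12 further desmosomal genes, 7 were lower in the HuCC-A1 than the EGI-1 tumors, 3 were higher and 2 were not called, so that DSG3 stood on the side of the smaller number. PKP1, plakophilin 1 of stratified epithelium, had 2.03 ± 0.875 CPM in HuCC-A1, 106 ± 94.8 CPM in HuCC-T1 and 91.5 ± 39.2 CPM in EGI-1 tumors, opposite to DSG3 for HuCC-A1 and EGI-1, with a HuCC-T1 mean of 64.4 CPM without replicate 5. PERP, a desmosomal membrane protein, had 1203 ± 80.0, 571 ± 29.2 and 2299 ± 393 CPM in the same order. DSP, desmoplakin, the plaque protein that binds keratin filaments, had 1137 ± 304 CPM in HuCC-A1, 555 ± 176 CPM in HuCC-T1 and 567 ± 76.9 CPM in EGI-1 tumors, and was called higher in HuCC-A1 over EGI-1 (edgeR adjusted p = 0.000879) and over HuCC-T1 (adjusted p = 0.000682). In HuCC-A1 against HuCC-T1, 3 of the 12 were higher and 2 lower, and in HuCC-T1 against EGI-1 1 was higher and 5 lower.

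Of 15 basal-layer genes, 10 were higher and 3 were lower in HuCC-A1 against EGI-1, 5 and 5 in HuCC-A1 against HuCC-T1, and 6 and 2 in HuCC-T1 against EGI-1. FAT2, a giant cadherin of basal keratinocytes, had 397 ± 109 CPM in HuCC-A1, 100 ± 132 CPM in HuCC-T1 and 17.8 ± 9.52 CPM in EGI-1 tumors, again the order of TP63, with a HuCC-T1 mean of 41.5 CPM without replicate 5. The Notch ligand JAG2 had 312 ± 74.5 CPM in HuCC-A1, 66.1 ± 26.1 CPM in HuCC-T1 and 109 ± 30.2 CPM in EGI-1 tumors. ITGB4, integrin beta 4 of hemidesmosomes, was lower in HuCC-A1 than in EGI-1 (log2 fold change -1.35, adjusted p = 3.35e-05 from edgeR) and than in HuCC-T1 tumors (-1.17, adjusted p = 0.000134).

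Suprabasal keratins did not share 1 order of models. KRT4, a keratin of the mucosal lining, had 825 ± 487 CPM in HuCC-A1, 49.9 ± 66.3 CPM in HuCC-T1 and 7.64 ± 6.13 CPM in EGI-1 tumors, whereas KRT16, a keratin of stressed epidermis, had 18.5 ± 4.76, 492 ± 612 and 577 ± 332 CPM in that order. KRT13, the partner of KRT4 in mucosal lining, had 733 ± 575 CPM in HuCC-A1, 117 ± 169 CPM in HuCC-T1 and 629 ± 246 CPM in EGI-1 tumors. The HuCC-T1 mean was 23.1 CPM for KRT4 and 43.9 CPM for KRT13 without replicate 1, and 221 CPM for KRT16 without replicate 5. KRT78, a keratin of stratified epithelium, had 13.0 ± 8.62, 1.44 ± 0.871 and 101 ± 50.4 CPM, with EGI-1 highest and HuCC-T1 lowest as for IVL. Of 11 tested, 1 was higher and 5 were lower in HuCC-A1 against EGI-1, 3 and 5 in HuCC-A1 against HuCC-T1, and 3 and 4 in HuCC-T1 against EGI-1. Reads of near-identical keratin genes can be shared between copies.

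Of 22 tested transcription factors of squamous epithelium, 7 were higher and 9 lower in HuCC-A1 against EGI-1, 12 and 4 in HuCC-A1 against HuCC-T1, and 6 and 10 in HuCC-T1 against EGI-1. SOX2, amplified with TP63 in many squamous cancers, had 78.4 ± 22.5 CPM in HuCC-A1, 0.392 ± 0.422 CPM in HuCC-T1 and none in EGI-1 tumors, all 5 of which were at 0. ZNF750, a target of p63 that promotes late differentiation, had 27.7 ± 12.8 CPM in HuCC-A1, 1.21 ± 1.68 CPM in HuCC-T1 and 11.8 ± 5.29 CPM in EGI-1 tumors, the order of CRCT1 and SFN. DLX3 and HOPX were highest in EGI-1, as IVL was, with 6.89 ± 4.51 and 78.8 ± 14.4 CPM there, against 0.208 ± 0.239 and 1.17 ± 0.599 CPM in HuCC-T1. In HuCC-A1 tumors DLX3 had 0.0307 to 0.267 CPM and HOPX 4.05 to 24.3 CPM. HuCC-A1 and HuCC-T1 tumors thus overlapped for DLX3, which they did not for IVL. Without HuCC-T1 replicate 5 the HuCC-T1 mean was 0.218 CPM for SOX2, 0.474 CPM for ZNF750 and 0.104 CPM for DLX3.

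Among 20 tested genes of the skin barrier, 7 were higher and 9 lower in HuCC-A1 against EGI-1, 11 and 6 in HuCC-A1 against HuCC-T1, and 2 and 11 in HuCC-T1 against EGI-1. The protease KLK5 and its inhibitor SPINK5, which together govern shedding of the surface layer, went opposite ways. KLK5 had 0.0703 ± 0.0651 CPM (10 counts) in HuCC-A1, 6.46 ± 3.91 CPM in HuCC-T1 and 216 ± 88.1 CPM in EGI-1 tumors. SPINK5 had 649 ± 322, 31.5 ± 29.7 and 33.0 ± 15.4 CPM in that order. CASP14, a caspase of cornifying cells, had 0.152 ± 0.246 CPM in HuCC-A1, 72.8 ± 15.3 CPM in HuCC-T1 and 31.8 ± 28.3 CPM in EGI-1 tumors. The HuCC-T1 mean of SPINK5 was 19.5 CPM without replicate 1, and for CASP14 the HuCC-A1 mean was 0.0483 CPM without replicate 1 and the EGI-1 mean 20.3 CPM without replicate 5.

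Genes with the most similar profile over the 15 tumors were sought for 1 gene of each role, among 12685 protein-coding genes, by the root mean square difference of log2 CPM after each gene was centered on its mean. For TP63 the nearest was EGFR, the receptor of epidermal growth factor, at 0.41 (median of all genes 1.74), followed by ALDH2, RFTN1, DIO2 and KIRREL1. EGFR averaged 1037 CPM in HuCC-A1, 835 CPM in HuCC-T1 and 96.2 CPM in EGI-1 tumors. For DSG3 the nearest was C9orf64 at 0.61 (median 3.45), followed by the alarmin IL33, COL27A1, GALNT18 and ANK1. For SPRR1B the nearest was its neighbor SPRR2D at 1.01 (median 1.96), followed by LY6D, a surface protein of squamous cells, TP53AIP1, ATP6V0A4 and ZNF493. For SFN the nearest was the replication licensing factor CDT1 at 0.23 (median 1.13), followed by MRPL41, RIN1, H2AFX and DNPH1. With 3 models of 5 tumors, such likeness can rest largely on the 3 model means, but that part was not measured. Single tumors enter too. SPRR1B and SPRR2D were both highest within HuCC-T1 in replicate 5, at 117 and 10.1 CPM.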

How the data were processed

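RNA of 15 vehicle-treated CDX tumors was read, 5 per model, grouped by the sample labels. Per the labels and the submitters' processing notes, libraries were made with a directional kit and reads were handled with CASAVA, aligned to GRCh38 with HISAT2 2.0.5 and counted per gene with featureCounts 1.5.0-p3. The deposited values are raw counts, which the authors did not normalize, for 58735 genes. All identifiers are in GENCODE release 29, which gave symbols, coordinates and exons. The sources used here do not give the strand setting, the annotation behind the counting or whether mouse reads were taken out. Both the members and the gene lists were chosen with earlier results of these data known, and the lists come from textbook knowledge.

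CPM were computed over TMM-scaled library totals. Genes outside the list of 10 were tested by edgeR 4.0.16 (quasi-likelihood F test) in R 4.3.3 in 1 fit of all 15 tumors, after its filter on low counts, with Benjamini-Hochberg adjustment over 21019 genes, a threshold of 0.05 and 12 residual degrees of freedom. With 1 cell line per model, the p-values speak only of tumor-to-tumor spread. The steps were tested on simulated counts of 20384 genes for HuCC-A1 against EGI-1. In them, 10 unchanged genes were called, as were 55 of 100 genes changed 2-fold and 93 of 100 changed 4-fold. No other gene was changed, and these only in HuCC-A1, whereas 55.4% of tested genes were called in the data. The rates may therefore differ in the data. Replicates differed by more than counting noise (chi-square per degree of freedom at least 35.5 between pairs of a model).

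Named genes were the members, up to 2 called genes in each direction per list and comparison at a mean log2 CPM of 1 or more, the 5 most abundant other genes of the epidermal differentiation complex, the 5 nearest profiles of TP63, SPRR1B, DSG3 and SFN, and, per marker list, its highest and lowest gene. Not every gene the rule picked is reported here. Skin and fibroblast markers beyond that rule were added after their values were seen. No member shares annotated exon bases with another gene. Of the 47 other genes named from the gene lists and the complex 8 do, at most 34.9% (SERPINB3). Genes named only from the marker lists or as nearest profiles are not in that number. Alternatives were RLE factors, raw library totals, no filter, 10 counts or more in each library, a fit of the 10 tumors compared alone, replicate number as a block, DESeq2 1.42.0, voom of limma 3.58.1, and leaving out each tumor. Leaving out HuCC-T1 replicate 5 and EGI-1 replicate 1 together was added after seeing the data. Promoters are from RefSeq, and figures were drawn with matplotlib 3.10.9.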

Additional observations from a re-analysis of the deposited data

Results flagged for a closer look

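Among the 10 genes, 3 of 30 groups of 5 tumors held 1 tumor that stood far from the other 4. The measure was Dixon's ratio of gap to range at its 95% level, exceeded by chance in about 1 group of 20 for normally distributed values. CPM were taken without logarithms and need not be so distributed. The number of such groups is therefore not set against that share. SPRR3 had 88.3 CPM in HuCC-T1 replicate 1, with the next tumor at 27.2 CPM. CRCT1 had 167 CPM in HuCC-A1 replicate 2 (next 49.1 CPM) and 3.15 CPM in HuCC-T1 replicate 5 (next 0.224 CPM).

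Among the 47 other genes named from the gene lists and the complex, 28 of 141 groups held such a tumor. In 16 of them it was HuCC-T1 replicate 5, always as the highest. Keratins and junction genes high there were KRT14 (2252 CPM, next 366 CPM), KRT16 (1578 CPM), KRT6C (46.4 CPM), KRT1 (42.4 CPM), FAT2 (335 CPM) and PKP1 (271 CPM). Envelope and barrier genes high there were SPRR2A (17.8 CPM), SPRR2D (10.1 CPM), SPRR2E (8.53 CPM), SBSN (7.69 CPM), RPTN (6.60 CPM), ABCA12 (7.75 CPM), SERPINB3 and SERPINB13 (5.51 CPM each). The transcription factors ZNF750 (4.17 CPM) and DLX3 (0.623 CPM) were high there too. HuCC-T1 replicate 1 stood apart for CRNN (27.5 CPM, next 3.64 CPM) and KRT13 (409.8 CPM, next 119.5 CPM), as it did for SPRR3, and was lowest for PRDM1 (6.14 CPM, next 14.9 CPM).

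EGI-1 replicate 1 stood apart for KRT16 (1155 CPM, next 524 CPM), KRT14 (179 CPM, next 29.3 CPM) and CALML5 (132 CPM, next 42.5 CPM), and was lowest for YWHAG (100.2 CPM, next 109 CPM). In EGI-1 replicate 5, ZNF750 had 21.0 CPM (next 10.7 CPM) and SBSN had 0.102 CPM with the other 4 tumors at 0. In HuCC-A1, PERP had 1345 CPM (next 1180.1 CPM) and KRT1 had 0.902 CPM in replicate 4, and JAG2 had 442 CPM in replicate 5 (next 290.2 CPM).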

How the results depend on the processing

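For the 10 genes, 448 of 450 log2 ratios of means kept their direction when 1 tumor was left out. The 450 include ratios where the tumor left out belonged to the model outside the comparison, which can move them only through scaling. All 30 ratios kept their direction with RLE factors and with raw library totals. For SPRR3 in HuCC-A1 over EGI-1 the ratio was -0.32, with a range of -0.67 to 0.021 and 0.0033 without HuCC-T1 replicate 5 and EGI-1 replicate 1 together. For SPRR1B in HuCC-A1 over HuCC-T1 it was -1.01, with a range of -1.33 to 0.20 and 0.16 without both tumors. Other uncalled log2 fold changes turned as well when 1 tumor was left out, namely SPRR2A in HuCC-A1 against EGI-1 (-0.011 to 0.68), SPRR2D in HuCC-A1 against HuCC-T1 (-0.35 to 3.05), and RPTN (-0.19 to 1.45) and SPRR2E (-1.55 to 2.33, and -0.45 without both tumors) in HuCC-T1 against EGI-1.

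With at least 10 counts in each library fewer genes enter, and 4081 genes were called higher in HuCC-A1 over EGI-1, against 6174 before, 24 against 38 of the other squamous genes. In HuCC-A1 against HuCC-T1 the number lower was 14 against 24, and in HuCC-T1 against EGI-1 the number higher was 14 against 27. The other counts of calls stayed within 1.5 times under each alternative. Replicate numbers share no stated origin, and deviations of same-numbered tumors correlated at -0.105 to 0.186 (over 0.1 in 2 of 15 pairs). With the replicate block, 38 of the other squamous genes were higher and 38 lower in HuCC-A1 against EGI-1, 47 and 24 in HuCC-A1 against HuCC-T1, and 27 and 42 in HuCC-T1 against EGI-1.

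Depth limits IVL and CRCT1 in HuCC-T1 most, with 55 and 117 counts over 5 libraries.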
